A study of Homo sapiens with 16 samples.

Results

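PANC1 is an established human cell line from a pancreatic ductal adenocarcinoma. The comparison described here set PANC1 cells given gemcitabine alone (40 nM, 24 h) directly against PANC1 cells given genistein alone (50 µM, 24 h), and the 4 libraries that enter it, 2 of each drug, were chosen by their labels out of the 16 RNA-seq libraries of the series. The series holds PANC1 and a further pancreatic cancer line, MiaPaCa2, each untreated, with either drug alone and with both, in 2 libraries per condition that the labels give as biological replicates. Per the study's methods genistein was dissolved in DMSO and gemcitabine was not, so drug and vehicle cannot be told apart in this contrast. No untreated library enters the main comparison: a gene that is higher with one drug may have risen with that drug or fallen with the other.

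Gemcitabine is a deoxycytidine analogue that cells phosphorylate and build into DNA, and its diphosphate inhibits ribonucleotide reductase, so that replication forks stall for want of deoxynucleotides. Genistein is a soy isoflavone known as a tyrosine kinase inhibitor, a ligand of estrogen receptors and a poison of topoisomerase II. A direct contrast of both asks which transcriptional programs differ between a nucleoside analogue and an isoflavone in the same cells.

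The gemcitabine libraries held 17514441 and 19687684 reads assigned to genes, more than the 12943482 and 13396067 of the genistein libraries. Replicates of a group differed by more than read sampling, with a chi-square per degree of freedom of 7.17 for gemcitabine and 2.7 for genistein. The ratio of the 2 gemcitabine libraries also moved with the GC content of the genes (Spearman correlation 0.649 across genes, against 0.286 for genistein). The epithelial keratins KRT8 and KRT18 and the mesenchymal filament gene VIM were abundant in all 4 libraries, at 743, 472 and 1927 FPKM on average with gemcitabine (a level scaled by transcript length and depth). Of 20 markers of other pancreatic and blood cell types, 10 had no read in any of the 4 libraries, among them CD3E, PECAM1, PRSS1 and INS. Another 5 passed 1 FPKM in at least 1 library. Among these, the stromal markers ACTA2 (2.74 to 4.43 FPKM) and PDGFRB (2.34 to 4.34 FPKM) were present in all 4. The summed FPKM of the 20 lay between 164 and 189 with no order by drug. Nearly all of it came from CD68, which had few assigned reads.

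Expression differed widely between the drugs. Of 16022 genes tested, 4026 were called, meaning a limma-voom adjusted p of at most 0.05, a log2 difference of at least 0.4 in size and a mean FPKM above 1 with either drug. Of these, 2378 (14.8% of the genes tested) were higher in gemcitabine and 1648 (10.3%) were higher in genistein, 25.1% in all. Large differences lay mostly on one side, since 606 of the genes called differed by a log2 of at least 1 toward gemcitabine and 146 toward genistein. For 69.9% of the genes tested the 2 libraries of one drug both lay above those of the other, so that a lack of overlap alone does not set a gene apart. The median log2 difference (gemcitabine minus genistein) over all genes was 0.01. Scaling by library size alone moved that median to 0.11 and gave 3231 genes higher in gemcitabine and 968 in genistein, so that 76.9% of the calls in place of 59.1% pointed to gemcitabine. With all 8 PANC1 libraries in one model, so that the untreated and combination libraries also set the error estimate, 521 and 717 genes were called, and 30.7% of the calls above were made again.

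**Figure D1:**
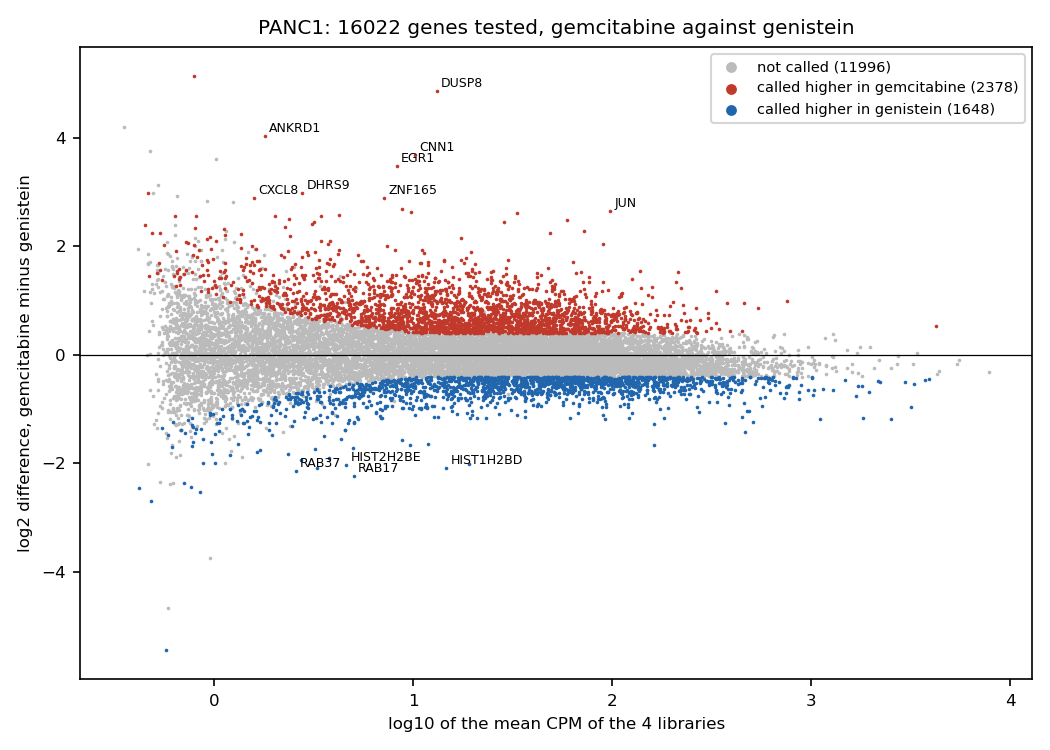
Each point is a gene: the x axis gives its mean CPM (assigned reads scaled by library size) over the 4 PANC1 libraries on a log10 scale and the y axis the log2 difference, gemcitabine minus genistein. Red points were called higher in gemcitabine (2378), blue points higher in genistein (1648) and grey points were not called (11996); the labelled genes are among those with the largest differences of known protein-coding genes, from DUSP8 at 4.86 to RAB17 at -2.24.

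The protein-coding genes with the largest differences toward gemcitabine were led by DUSP8, a phosphatase that inactivates JNK and p38 kinases. In TMM-scaled CPM, a read count scaled by library size, DUSP8 stood at 29.1 and 22.0 in the gemcitabine libraries and at 0.885 and 0.773 in the genistein libraries. The difference of 29.1-fold (log2 4.86 ± 0.37, with SE after ± for log2 differences throughout, adjusted p = 1e-09) was many times the gap between replicates. ANKRD1, a target of the coactivator YAP, was at 3.78 and 3.01 CPM against 0.0805 and 0.309 CPM, and the latter values rest on 1 read and 4 reads. CNN1, the actin-binding protein calponin, was at 20.1 and 17.4 CPM against 2.17 and 0.928 CPM (log2 3.69 ± 0.31, adjusted p = 6.4e-09). The early growth response factor EGR1 was at 15.8 and 14.6 CPM against 0.966 and 1.78 CPM (log2 3.48 ± 0.30, adjusted p = 9.1e-09). DHRS9, a retinol dehydrogenase, was at 4.62 and 5.29 CPM against 0.563 and 0.619 CPM (log2 2.98 ± 0.38, adjusted p = 2.3e-06). The gemcitabine libraries lay above the genistein libraries for each of these 5 genes. The next 10 were CXCL8, which encodes interleukin-8 (log2 2.90), ZNF165 (2.90), CREB5 (2.70), JUN (2.65), HES4 (2.63), FAM111B (2.62), NR4A1 (2.59), KM-PA-2 (2.56), the potassium channel subunit KCNF1 and ATF3 (2.49).

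Toward genistein the differences were smaller, and histone genes took 4 of the 15 leading places. RAB17, a small GTPase of epithelial membrane traffic, was at 8.37 and 8.20 CPM in the genistein libraries and at 1.89 and 1.60 CPM in the gemcitabine libraries (log2 -2.24 ± 0.24, adjusted p = 2.5e-07). RAB37, a GTPase of secretory vesicles, was at 3.78 and 4.64 CPM against 0.946 and 0.923 CPM (log2 -2.14 ± 0.32, adjusted p = 1.3e-05). Both genes were higher in each genistein library than in either gemcitabine library, by 4.73-fold and 4.42-fold on average. Beside the histone genes given further down, the leading genes were the peroxisomal oxidase PIPOX, the diacylglycerol kinase DGKG (-1.93), LYRM9 (-1.90), LNP1 (-1.76), the lipid droplet protein PLIN4 (-1.72), the ribosomal S6 kinase RPS6KA2 (-1.67), DDIT4, an inhibitor of mTORC1 (-1.66), the helicase PIF1 (-1.65) and SERF1B (-1.61). SERF1B has a near-identical neighbour copy, and in FPKM it was higher with gemcitabine (52.9 against 36.5), so its direction is uncertain. Opposite-strand genes overlap part of RAB37, LYRM9, ZNF165 and NR4A1, and the sources used here do not give the strand setting of the read counting.

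**Figure D2:**
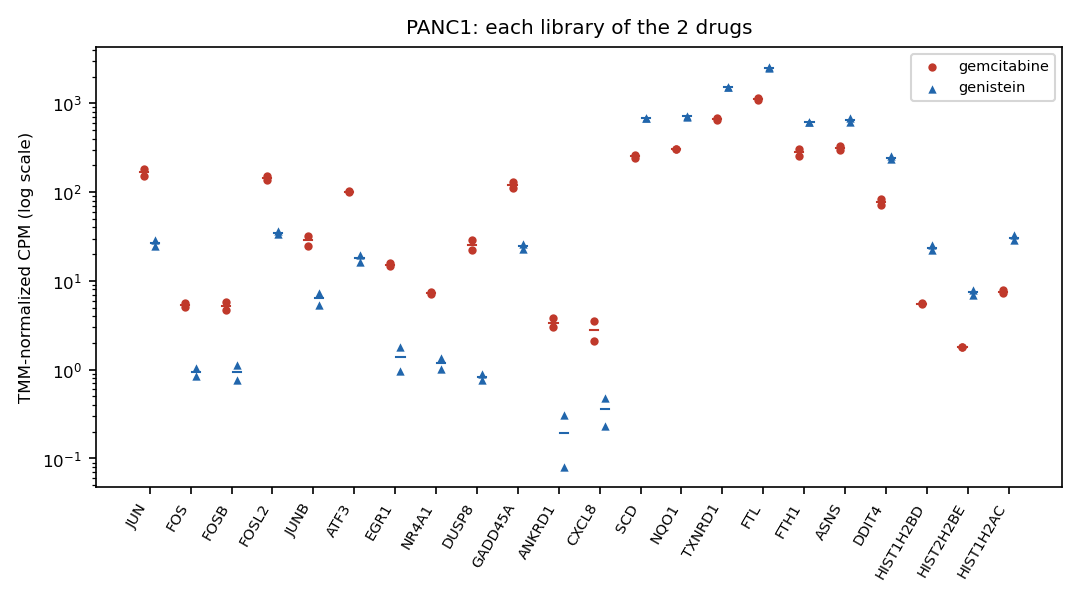
TMM-normalized CPM (log axis) of 22 genes in each of the 2 gemcitabine libraries (red circles) and the 2 genistein libraries (blue triangles) of PANC1, with short lines at the group means. For every gene drawn the libraries of the drugs do not overlap, from JUN (184 and 153 against 24.9 and 28.8) to HIST1H2AC (7.23 and 7.87 against 28.7 and 32.6).

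AP-1 is a dimer of FOS and JUN family proteins whose genes are switched on within minutes by stress and mitogen kinases, and ATF3 and the small MAF factors pair with them. Of 11 AP-1 factors tested, 9 (81.8%, against 14.8% of all genes tested) were called higher in gemcitabine. None was called higher in genistein, and the median log2 difference was 2.04. JUN was at 184 and 153 CPM with gemcitabine and at 24.9 and 28.8 CPM with genistein (6.26-fold, adjusted p = 6.2e-13). FOSL2 was at 152 and 138 CPM against 34.0 and 36.0 CPM (4.12-fold, adjusted p = 1.7e-12). FOS was at 5.67 and 5.10 CPM against 1.05 and 0.851 CPM (5.49-fold, adjusted p = 4.5e-06). The stress factor ATF3 (2.49), FOSB (2.42), JUNB (2.15), MAFF (1.70), MAFK (1.04) and JUND (1.01) made up the other calls, while FOSL1 (-0.01, adjusted p = 0.95) and BATF3 (0.17) were not called. All 9 were called again with 8 libraries in the model and without any one library. On the side with no call, an unadjusted limma-voom p under 0.05 was reached by 0 genes of this list, of the early genes, of the Krüppel-like factors and of the clock genes described here. It was reached by 2 each of the replication, p53 and lipid lists and by 1 of the NRF2 list. On that side edgeR and DESeq2 called 0 in each of these lists. After correction for GC content, 1 member each of the replication, p53 and Krüppel-like lists was called there. Scaling by library size alone called 1 each of the NRF2 and lipid lists there.

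In 5 of the 8 called AP-1 factors with a RefSeq promoter, the 250 bases before the start site held TGACGT, the core of the cyclic AMP response element, on either strand, against 7.42% of 27305 promoters. The same window held the AP-1 site TGAGTCA in 0 of the 8 (4.16% of all promoters). TGACGT was not particular to AP-1 factors or to genes higher in gemcitabine. It stood in 4 of 9 windows of histone genes higher in genistein and in 7 of 31 of replication genes higher in gemcitabine. Among members not called, 6 of 23 windows of mitotic genes and 0 of 17 of replication genes held TGACGT. The windows of FOS and FOSB are shown as the called members with the largest differences that hold it, 64 and 60 bases before the start, in capitals. All windows printed here are from RefSeq on GRCh38.p14, 5′ to 3′ on the strand of the gene, and a match describes the letters only, with no evidence of binding.
FOS, chr14:75278578-75278827, plus strand: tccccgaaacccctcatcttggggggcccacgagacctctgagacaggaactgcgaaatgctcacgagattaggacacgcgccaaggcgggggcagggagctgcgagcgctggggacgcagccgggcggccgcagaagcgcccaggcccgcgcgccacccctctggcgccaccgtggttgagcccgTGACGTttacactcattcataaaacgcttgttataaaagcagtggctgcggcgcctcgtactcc
FOSB, chr19:45467746-45467995, plus strand: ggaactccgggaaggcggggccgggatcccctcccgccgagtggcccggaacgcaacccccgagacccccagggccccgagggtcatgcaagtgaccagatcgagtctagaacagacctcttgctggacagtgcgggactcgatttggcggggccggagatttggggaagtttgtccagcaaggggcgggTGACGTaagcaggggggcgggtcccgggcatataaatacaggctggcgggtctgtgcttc

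The EGR, NR4A and IER families share growth factor and stress inputs with AP-1. A list of these and other early genes followed, with 7 of 15 called higher in gemcitabine and none in genistein. The 7 are 46.7%, against 14.8% of all genes tested. They were 1 of 2 EGR genes, 1 of 2 NR4A genes and 5 of 11 others, and CTGF among them is also in the YAP list below. NR4A1, an orphan nuclear receptor of the same early wave, was at 7.46 and 7.09 CPM with gemcitabine and at 1.37 and 1.01 CPM with genistein (6.02-fold, adjusted p = 8.4e-07). The antiproliferative gene BTG2 (log2 1.88), CTGF (1.34), CYR61 (0.47), the mRNA decay factor ZFP36 (0.46) and IER2 (0.43) were also called, whereas IER3 (0.01) and NR4A2 (0.04) lay near 0. EGR4 had no read in either genistein library and stayed below 1 FPKM with gemcitabine, so it was not called. Of 21 feedback and target genes of ERK and related kinases, 5 (23.8%, against 14.8% of all genes tested) were higher in gemcitabine. Among them were the phosphatase genes DUSP8, DUSP2 (1.40), DUSP10 (1.37) and DUSP5 (0.75). The 2 higher in genistein, SPRY4 (-0.73) and ETV5 (-0.46), are 9.52%, near the 10.3% of all genes tested. DUSP1 (-0.09) and DUSP6 (0.25) were not called.

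YAP and TAZ are coactivators that bind TEAD factors and respond to cell tension. Of 22 genes of this list, 10 (45.5%, against 14.8% of all genes tested) were called higher in gemcitabine. The 3 called higher in genistein (13.6%) are a share near the 10.3% of all genes tested. The 10 were mostly targets, among them ANKRD1, CTGF at 125 and 132 CPM against 50.5 and 50.9 CPM, NUAK2 (0.97) and AMOTL2 (0.73). The 3 were the TAZ gene WWTR1 (-0.65), PTPN14 (-0.52) and TEAD2 (-0.48), and YAP1 itself (-0.11) was not called. The counts were 6 and 2 with 8 libraries in the model. Of 12 Krüppel-like factors, 5 (41.7%, against 14.8% of all genes tested) were higher in gemcitabine. They were led by KLF6 at 317 ± 5.98 CPM against 110 ± 8.27 CPM (log2 1.53 ± 0.08, adjusted p = 4.5e-12) and KLF5 (1.39). Without genistein replicate 2, or with 8 libraries in the model, the number was 3.

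**Figure D3:**
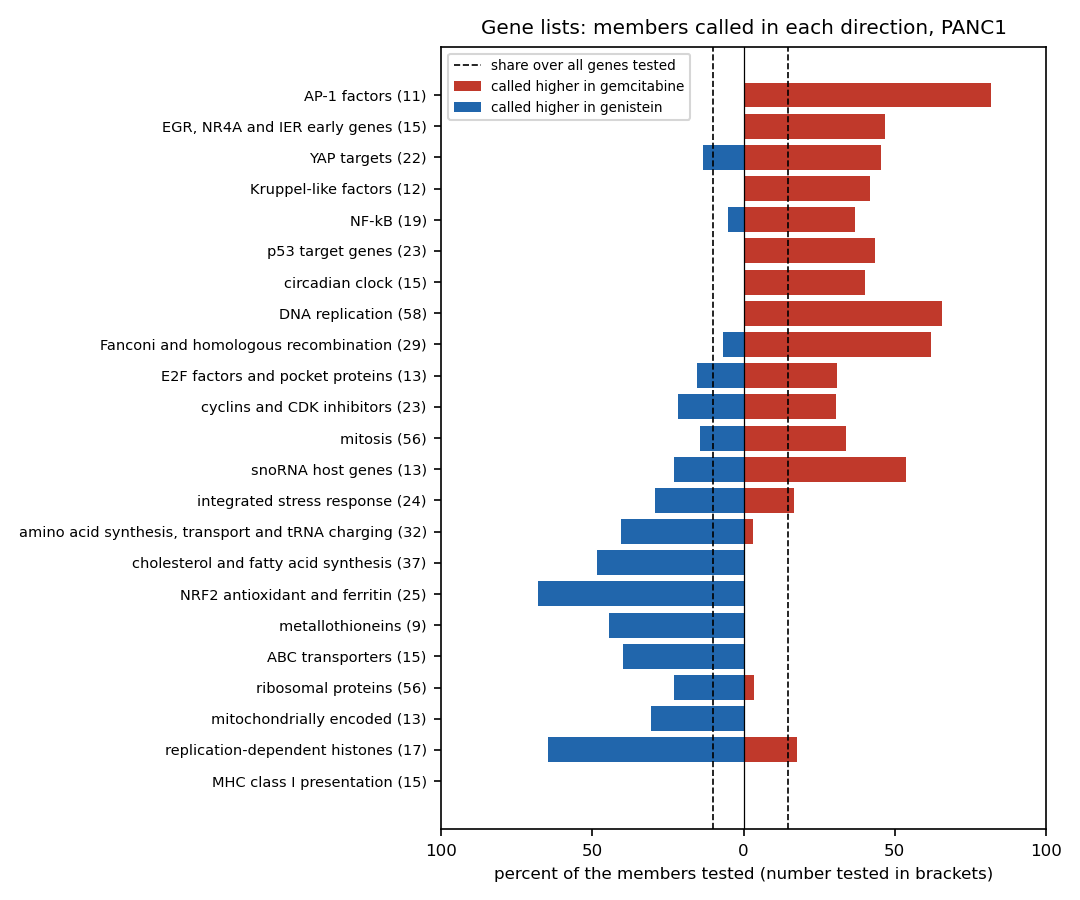
Bars give, for 23 gene lists, the percentage of the members tested (number in brackets) that were called higher in gemcitabine (red, right) or higher in genistein (blue, left). Dashed lines mark the shares over all 16022 genes, 14.8% and 10.3%; AP-1 factors reach 81.8% on the right and NRF2 and ferritin genes 68% on the left.

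The NF-kB list held 7 genes higher in gemcitabine of 19 tested, and 1 higher in genistein (36.8% and 5.26%, against 14.8% and 10.3% of all genes tested). The subunits REL (1.11), RELB (1.34) and NFKB2 (0.63) were called, RELA (0.18) and NFKB1 (0.18) were not. The inhibitor genes moved apart: TNFAIP3 (log2 1.76, 3.40-fold) and NFKBIB (1.55) were higher in gemcitabine, whereas NFKBIA was at 42.5 and 43.5 CPM against 91.1 and 91.2 CPM (log2 -1.08 ± 0.10, adjusted p = 1.8e-08). CXCL8, an NF-kB and AP-1 target, was at 2.11 and 3.54 CPM against 0.483 and 0.232 CPM.

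Genes that p53 is known to switch on gave 10 of 23 higher in gemcitabine and none in genistein, with a median of 0.36. The 10 are 43.5%, against 14.8% of all genes tested. PANC1 carries mutant p53, and the classical targets were uneven. GADD45A, a growth arrest gene that other stress factors also drive, was at 120 ± 12.4 CPM against 24.5 ± 2.15 CPM (SD, n = 2), a difference of 4.89-fold (adjusted p = 1.7e-12). AEN, an apoptosis nuclease, was at 189 and 177 CPM against 72.0 and 66.8 CPM (log2 1.40 ± 0.09), and the BH3-only death genes PMAIP1 (1.17) and BBC3 (0.89) were also called. The inhibitor of cyclin-dependent kinases CDKN1A (0.36) and the p53 ligase MDM2 (0.26) were not called. With 8 libraries in the model, 4 of the 10 were called.

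Genes for DNA replication were, by number, the largest list with calls on one side only. Of 58 tested, 38 (65.5%, against 14.8% of all genes tested) were called higher in gemcitabine. None was called higher in genistein, and the median log2 difference was 0.50. CDT1, which loads the MCM helicase on origins, was at 80.8 and 62.6 CPM with gemcitabine and 25.1 and 21.3 CPM with genistein (3.06-fold, adjusted p = 5.4e-09). ATAD5, which unloads the PCNA clamp, was at 15.9 and 19.2 CPM against 4.51 and 4.64 CPM (3.80-fold, adjusted p = 8.2e-08). The helicase subunit MCM2 was at 648 and 563 CPM against 316 and 311 CPM (1.93-fold, adjusted p = 4.2e-09). The calls covered every stage, with 4 of 7 MCM genes, 6 of 11 licensing genes, 8 of 10 genes of helicase activation such as GINS3 (1.26), 14 of 21 polymerase and clamp genes such as POLD3 (1.12) and 6 of 9 fork protection genes such as CLSPN (0.80). The checkpoint kinase gene CHEK1 (0.24) and the subunit MCM6 (0.16) were not called. In the model with 8 libraries 22 members were called, again all higher in gemcitabine.

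Of 13 genes of E2F factors, which switch on S phase genes, and their pocket protein partners, 4 (30.8%) were higher in gemcitabine and 2 (15.4%) in genistein. Over all genes tested the shares were 14.8% and 10.3%. E2F1 was at 271 and 237 CPM against 139 and 132 CPM (log2 0.90 ± 0.09, adjusted p = 4.2e-08), and E2F2 (1.44), E2F8 (1.31) and E2F7 (1.03) were higher in gemcitabine, while the pocket protein gene RBL2 (-0.57) and E2F5 (-0.56) were higher in genistein. The calls of RBL2 and E2F5 were lost with 8 libraries in the model. CCNE2, a cyclin of S phase entry, was at 42.4 and 54.3 CPM against 7.49 and 10.1 CPM (5.50-fold, adjusted p = 2.6e-10), and CCNE1 (0.78) and CDC25A (0.92) pointed the same way. Ribonucleotide reductase, the enzyme that gemcitabine inhibits, was higher with that drug in both subunits: RRM2 was at 966 and 1054 CPM against 497 and 518 CPM (1.99-fold, adjusted p = 3e-10) and RRM1 at 0.44. The kinase that activates gemcitabine, DCK, was at 42.2 and 50.6 CPM against 30.9 and 33.8 CPM (log2 0.52 ± 0.12, adjusted p = 0.0016), a call that was lost without genistein replicate 1 (adjusted p = 0.0651) or gemcitabine replicate 2 (log2 0.38). The list of nucleotide supply and gemcitabine metabolism had 7 of 20 higher in gemcitabine (35%) and 1 in genistein (5%). These shares stand against 14.8% and 10.3% of all genes tested. Nucleotide supply genes gave 6 of the 7, from 10 tested, and the 1 higher in genistein was an uptake gene. With 8 libraries in the model the 7 became 1.

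E2F sites spelled TTCGCGC or TTGGCGC, on either strand, stood in 6 of the 31 promoter windows found for the replication genes higher in gemcitabine and in 3 of 17 windows of members not called, against 4.37% of all promoters. The windows of TOPBP1 and CHAF1A are shown as the members with the largest differences among the 6. Capitals mark the sites, and the pair in TOPBP1 overlaps on opposite strands.
TOPBP1, chr3:133661942-133662191, minus strand: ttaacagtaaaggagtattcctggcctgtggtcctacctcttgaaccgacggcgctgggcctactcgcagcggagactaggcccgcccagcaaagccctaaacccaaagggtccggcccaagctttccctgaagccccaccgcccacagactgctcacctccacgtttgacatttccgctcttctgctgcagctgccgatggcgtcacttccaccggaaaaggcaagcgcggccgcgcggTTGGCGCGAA
CHAF1A, chr19:4402390-4402639, plus strand: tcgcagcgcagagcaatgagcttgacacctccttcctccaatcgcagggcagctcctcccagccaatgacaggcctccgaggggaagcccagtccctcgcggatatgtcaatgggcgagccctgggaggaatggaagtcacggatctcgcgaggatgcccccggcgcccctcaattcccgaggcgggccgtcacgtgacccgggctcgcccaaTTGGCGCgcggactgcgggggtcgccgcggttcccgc

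Genes of the Fanconi pathway and homologous recombination, which repair stalled and broken forks, gave 18 of 29 higher in gemcitabine (62.1%) and 2 in genistein (6.9%). Over all genes tested the shares were 14.8% and 10.3%, and the median of the list was 0.62. BRCA2 was at 11.6 and 14.0 CPM against 3.54 and 3.09 CPM (3.82-fold, adjusted p = 4.6e-07). EXO1, an exonuclease that resects DNA ends, was at 118 and 129 CPM against 52.9 and 55.5 CPM (2.27-fold, adjusted p = 4.7e-09). BARD1 (1.04), BRIP1 (1.04) and BRCA1 (0.80) were also called. FANCD2 (0.21) was not, and FANCF (-0.67) was higher in genistein. With 8 libraries in the model the counts were 6 and 1, and BRCA1, BRCA2 and BRIP1 were among the genes no longer called.

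Mitotic genes were called on both sides. Of 56 tested, 19 (33.9%) were called higher in gemcitabine, against 14.8% of all genes tested. The 8 called higher in genistein (14.3%) are a share near the 10.3% of all genes tested. With 8 libraries in the model these counts became 2 and 7. The 8 were KIF20A, CDC20, PLK1, PTTG1, AURKA, CENPA, NCAPD2 and BUB1. KIF20A, a kinesin of cytokinesis, was at 170 and 166 CPM with genistein and 74.2 and 76.5 CPM with gemcitabine (2.23-fold, adjusted p = 9.7e-10). CDC20, which activates the anaphase-promoting complex, was at 380 and 354 CPM against 188 and 164 CPM (2.09-fold, adjusted p = 1.5e-09). PLK1, the polo-like kinase, was at 168 and 148 CPM against 83.8 and 77.9 CPM, and the mitotic cyclin gene CCNB1 was at 416 and 455 CPM against 227 and 250 CPM (1.82-fold, adjusted p = 1.7e-08). Other kinesin, kinetochore and condensin genes lay on the other side, with KIF20B (1.55), CENPE (1.47), KIF18A (1.20), SMC2 (0.98) and NUF2 (0.91) higher in gemcitabine. CDK1, the kinase that binds CCNB1, was also higher in gemcitabine (0.78). TOP2A, the topoisomerase that genistein can trap on DNA, was at -0.31 and not called.

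Of the mitotic genes higher in genistein, 7 had a RefSeq promoter window, and all 7 held CCAAT on either strand. The same motif stood in 8 of 17 windows of mitotic genes higher in gemcitabine, in 18 of 23 not called, and in 33% of all promoters. The window of KIF20A, the leading gene of the group, is shown with both matches in capitals, which read ATTGG where the motif lies on the other strand.
KIF20A, chr5:138178862-138179111, plus strand: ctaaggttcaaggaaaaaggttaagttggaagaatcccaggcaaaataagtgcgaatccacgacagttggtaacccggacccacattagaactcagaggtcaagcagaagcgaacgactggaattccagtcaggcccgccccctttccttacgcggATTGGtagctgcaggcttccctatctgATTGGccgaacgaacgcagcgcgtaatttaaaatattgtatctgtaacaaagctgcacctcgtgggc

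**Figure D4:**
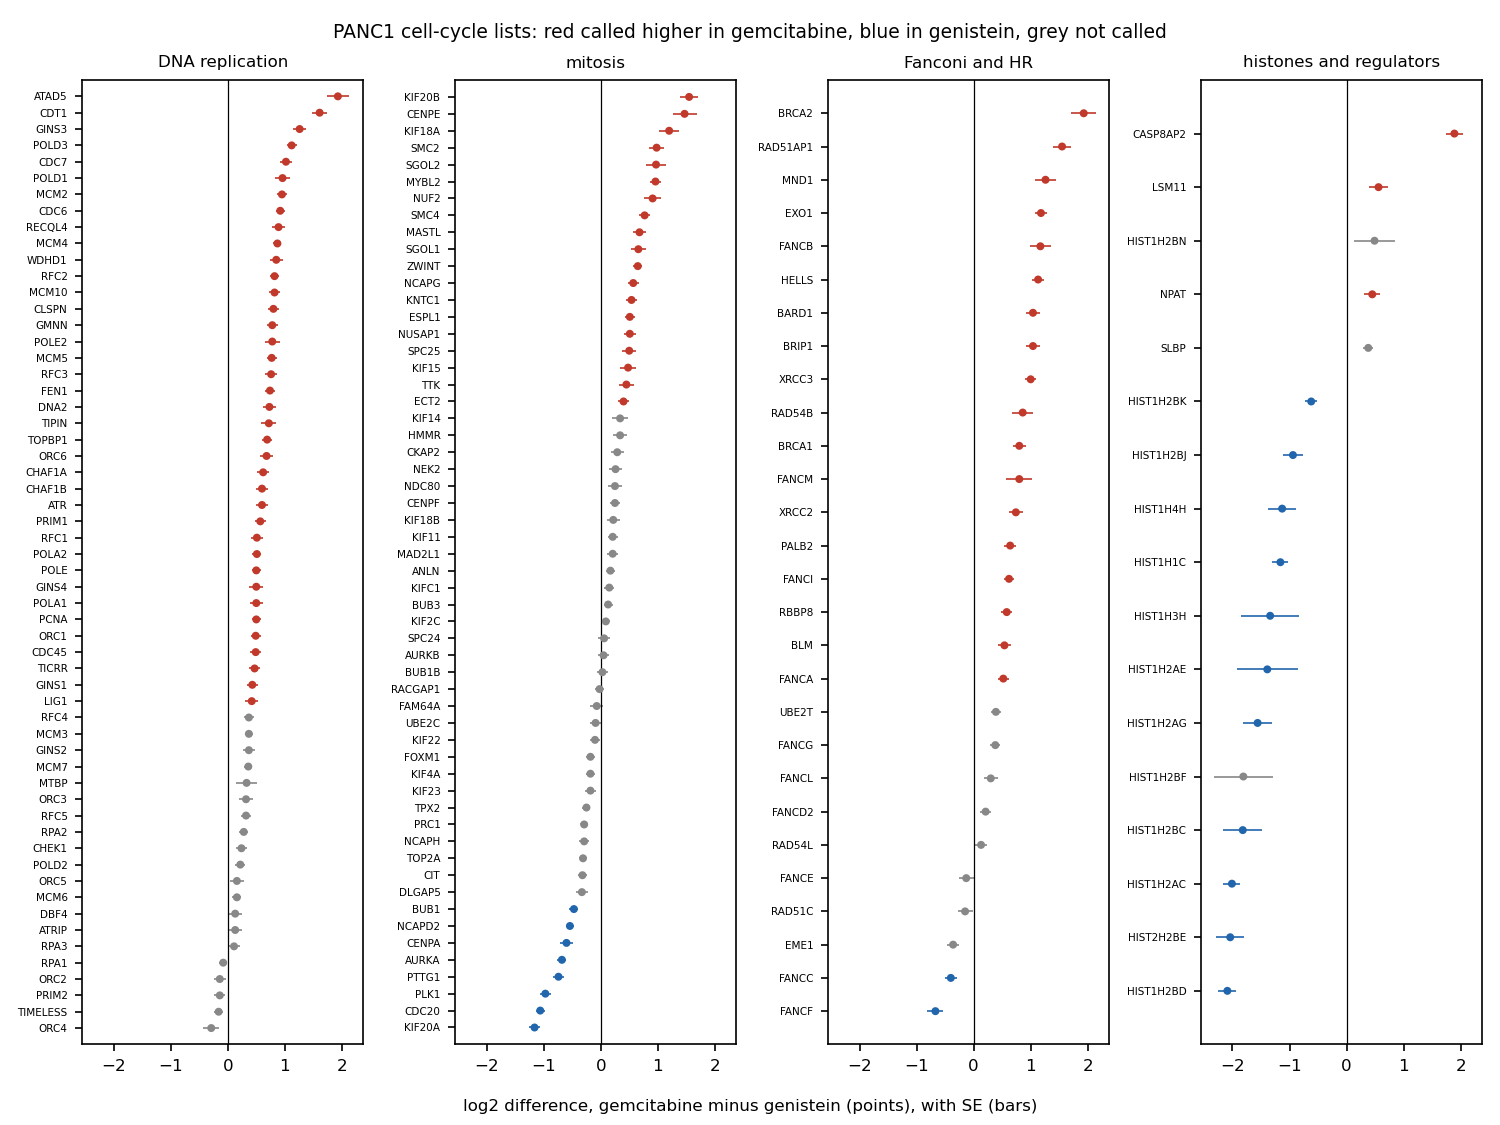
Points give the log2 difference, gemcitabine minus genistein, of the members drawn of 4 lists, with bars of 1 SE, and rows are ordered by the difference. Red marks members called higher in gemcitabine, blue higher in genistein and grey not called; replication genes lie between -0.29 and 1.93, mitotic genes between -1.16 and 1.55, and the histone genes at the bottom of the last panel reach -2.09.

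The replication-dependent histone genes, whose main transcripts end in a stem-loop and lack a poly(A) tail, stood opposite to the replication genes. The libraries were made from poly(A) RNA, and 17 of 64 members of the list passed the filter on low counts, 13 of them histone genes. Of these 13, 11 were called higher in genistein, against 10.3% of all genes tested, and none in gemcitabine. HIST1H2BF (-1.81) stayed below 1 FPKM and HIST1H2BN stood at 0.49. HIST1H2BD was at 25.4 and 22.0 CPM with genistein and 5.62 and 5.49 CPM with gemcitabine (4.25-fold, adjusted p = 1.7e-09). HIST1H2AC was at 28.7 and 32.6 CPM against 7.23 and 7.87 CPM (4.04-fold, adjusted p = 6.7e-10). HIST2H2BE was at 6.92 and 7.97 CPM against 1.78 and 1.80 CPM (4.12-fold, adjusted p = 9.6e-07). The calls took in linker, H2A, H2B, H3 and H4 genes, with HIST1H1C (-1.16), HIST1H4H (-1.13) and HIST1H3H (-1.34) among them, and HIST1H3H, at under 1 CPM in every library, lost its call without any one library. Of the factors that start their transcription or process their 3′ ends, CASP8AP2 lay clearly the other way, at 29.6 and 32.2 CPM with gemcitabine against 8.05 and 8.58 CPM (3.70-fold). LSM11 (0.56) and NPAT (0.45) were also called higher in gemcitabine, while the stem-loop binding protein SLBP (0.38) was not called. LSM11 stood at 0.40 without genistein replicate 2. NPAT stood at 0.35 without genistein replicate 1 and at 0.28 without gemcitabine replicate 2. These libraries do not tell a change in histone transcription from a change in the share of polyadenylated histone transcripts. With 8 libraries in the model 8 of the 11 were called, and 1 member of the list in place of 3 was called higher in gemcitabine.

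Of 9 promoter windows found for the histone genes higher in genistein, 8 held CCAAT and 6 held ATTTGCA, part of the octamer bound by OCT1, which stood in 3.7% of all promoters. The windows of the leading pair are shown with these motifs in capitals. HIST2H2BE has the octamer 46 bases before its start.
HIST1H2BD (H2BC5 in RefSeq), chr6:26157871-26158120, plus strand: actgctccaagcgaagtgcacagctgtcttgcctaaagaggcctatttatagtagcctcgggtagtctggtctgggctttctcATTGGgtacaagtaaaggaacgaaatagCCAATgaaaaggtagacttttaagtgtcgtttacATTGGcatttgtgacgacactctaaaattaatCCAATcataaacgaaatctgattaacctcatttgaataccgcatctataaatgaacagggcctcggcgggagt
HIST2H2BE (H2BC21 in RefSeq), chr1:149886683-149886932, minus strand: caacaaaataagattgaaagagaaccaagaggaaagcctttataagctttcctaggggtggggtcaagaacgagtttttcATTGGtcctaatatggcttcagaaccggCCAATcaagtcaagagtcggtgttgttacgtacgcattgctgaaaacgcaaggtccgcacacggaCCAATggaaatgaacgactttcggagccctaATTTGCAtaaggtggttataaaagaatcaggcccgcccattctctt

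On the genistein side, genes of the NRF2 program had the largest share of members called among the 23 lists drawn. The histone list, at 64.7%, counts 4 regulators with its histone genes, and 3 of these 4 were higher in gemcitabine. NRF2 is a factor that KEAP1 holds in check until oxidants or electrophiles release it, and it drives glutathione, thioredoxin and NADPH enzymes and the ferritin chains. Of 25 tested, 17 (68%, against 10.3% of all genes tested) were called higher in genistein and none in gemcitabine, with a median of -0.65. NQO1, a quinone reductase, was at 705 and 719 CPM with genistein and 305 and 303 CPM with gemcitabine (2.34-fold, adjusted p = 6.8e-12). TXNRD1, thioredoxin reductase, was at 1530 and 1529 CPM against 656 and 689 CPM (2.27-fold, adjusted p = 3.8e-12). The ferritin light chain FTL was at 2562 and 2469 CPM against 1148 and 1094 CPM (2.24-fold, adjusted p = 2.1e-12), and the heavy chain FTH1 at 621 and 617 against 305 and 255 CPM. FTH1 has many processed copies, so its reads can be split by the counting. GSR (-0.87), GCLM (-0.70) and GCLC (-0.58) were called too. NFE2L2, which encodes NRF2, was at 0.23 and KEAP1 at -0.01, neither called, and the heme oxygenase gene HMOX1 (-0.29) missed the fold criterion. With 8 libraries in the model 11 members were called.

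Lipid synthesis genes are driven by SREBP factors when membrane sterol is low. Of 37 tested, 18 (48.6%, against 10.3% of all genes tested) were higher in genistein and none in gemcitabine (median -0.40). SCD, the stearoyl-CoA desaturase, was at 674 and 688 CPM with genistein and 242 and 263 CPM with gemcitabine (2.70-fold, adjusted p = 1.7e-12). FADS2 (-1.25), INSIG1 (-1.18) and SREBF1 (-0.80) were called as well. Of the branches, 7 of 9 fatty acid genes and 7 of 22 cholesterol genes were called. The fatty acid synthase gene FASN was at 388 and 292 CPM with gemcitabine and 356 and 294 CPM with genistein (log2 0.06) and was not called, but after correction for GC content it was called higher in genistein (-0.42). With 8 libraries in the model 10 of the 18 were called.

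Genes of the integrated stress response were called on both sides. In this response, kinases of the factor eIF2 raise translation of ATF4, which switches on amino acid genes, while DDIT3 and ATF3 act further down. ATF4 was at 266 and 267 CPM with genistein and 177 and 174 CPM with gemcitabine (log2 -0.60 ± 0.08, adjusted p = 2.2e-06), and DDIT4 at 253 and 237 against 84.5 and 71.3 CPM (3.16-fold, adjusted p = 4.5e-12). DDIT3, which encodes CHOP, was the other way, at 131 and 133 CPM with gemcitabine and 60.5 and 55.1 CPM with genistein (2.29-fold, adjusted p = 2.8e-09). PPP1R15A (1.44), ATF3 and the kinase gene EIF2AK3 (0.63) sided with DDIT3, and CHAC1 (-0.77), NUPR1 (-0.67) and TRIB3 (-0.60) with ATF4. Over the list, 4 of 24 were higher in gemcitabine, a share near the 14.8% of all genes tested, and 7 were higher in genistein, against 10.3% of all genes. Of 32 genes for amino acid synthesis, transport and tRNA charging, 13 (40.6%) were higher in genistein and 1 (3.12%) in gemcitabine. ASNS, asparagine synthetase, was at 608 and 675 CPM against 300 and 327 CPM (2.04-fold, adjusted p = 5.9e-10), and PSAT1 (-0.97) and PHGDH (-0.72) of the serine pathway were called. With 8 libraries in the model the 13 became 5 and the 7 became 4, and on the log2(FPKM + 1) scale 5 too, where the 7 stress response genes became 2.

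Smaller groups pointed to genistein as well. In the list of metallothioneins, which bind zinc and copper, and their regulators 4 of 9 were called (44.4%, against 10.3% of all genes tested). MT1X was at 21.5 and 20.3 CPM against 10.8 and 9.76 CPM (log2 -1.03 ± 0.14). The xenobiotic enzyme gene CYP1A1, a target of the aryl hydrocarbon receptor, was at 28.5 and 30.6 CPM against 20.1 and 17.3 CPM (log2 -0.67 ± 0.13, adjusted p = 0.00029). Of 15 ABC transporters, 6 (40%) were called, among them the drug exporters ABCC3 (-0.94), ABCC1 (-0.78) and ABCG2 (-0.73). Ribosomal protein genes had 13 of 56 called higher in genistein (23.2%) and 2 in gemcitabine (3.57%), with a small median of -0.23. The 13 became 8 with 8 libraries in the model. They became 4 when scaled by library size alone or corrected for GC content, where 968 and 1564 of all 16022 genes were higher in genistein. The lean of this list toward genistein thus depended on the scaling. CDH1, which encodes E-cadherin, was at 15.7 and 13.2 CPM with genistein against 7.90 and 6.75 CPM (log2 -0.98 ± 0.17). ZEB2, a repressor of CDH1, was at 5.51 and 6.46 CPM with gemcitabine against 1.85 and 1.93 CPM (log2 1.64 ± 0.27, adjusted p = 4.9e-05). Their list did not part by kind. Of 17 epithelial genes tested, 2 (11.8%) were called higher in gemcitabine and 4 (23.5%) in genistein. Of 10 mesenchymal genes these were 1 (10%) and 2 (20%), and over all genes tested 14.8% and 10.3%.

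Of 15 clock genes 6 (40%, against 14.8% of all genes tested) were higher in gemcitabine. They were led by PER2 at 29.2 and 29.4 CPM against 9.66 and 10.3 CPM (2.93-fold, adjusted p = 2.9e-08), with BHLHE40 (1.34) and NR1D1 (1.34). CLOCK (-0.17) and ARNTL (-0.26) were not called. Host genes of small nucleolar RNAs have spliced transcripts that are removed by nonsense-mediated decay. Of 13 tested, 7 (53.8%) were higher in gemcitabine and 3 (23.1%) in genistein, against 14.8% and 10.3% of all genes tested. SNHG15 was at 97.3 ± 6.85 CPM against 34.0 ± 0.0134 CPM (2.85-fold, adjusted p = 3.4e-10), SNHG1 stood at 1.26 and ZFAS1 at 1.18, and SNHG3 (-0.93) and DANCR (-0.87) were higher in genistein. The splicing kinase genes CLK1 (1.02) and CLK4 (1.35) were higher in gemcitabine, but neither was called with 8 libraries in the model.

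The study centres on GPER1, a membrane estrogen receptor, and on genes around it. GPER1 (GPER in the deposited tables) was at 9.24 and 6.60 CPM with gemcitabine and 6.84 and 6.11 CPM with genistein, which overlap, and was not called (log2 0.26 ± 0.20, adjusted p = 0.32), while without gemcitabine replicate 2 it passed as higher in gemcitabine (log2 0.51, adjusted p = 0.0311). ESR1 and ESR2, the nuclear estrogen receptor genes, did not pass the filter on low counts. The vitamin D receptor gene VDR was at 15.7 and 15.3 CPM against 9.42 and 9.20 CPM (log2 0.73 ± 0.15, adjusted p = 0.00069), and the mucin gene MUC1 at 25.3 and 23.4 CPM against 17.5 and 15.5 CPM (log2 0.56 ± 0.14, adjusted p = 0.00227, and 0.0951 without genistein replicate 2). RXRA (0.18), SP1 (-0.03), CASP9 (-0.22) and ITPR1 (-0.27) were not called.

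The same contrast in MiaPaCa2, whose 4 libraries are separate from those of PANC1, showed which of these differences were shared. MiaPaCa2 had 2146 genes higher in gemcitabine (12.5% of 17186 tested) and 1497 higher in genistein (8.71%) in a model of the 8 libraries of both lines. Of 1197 genes called in both lines, 662 were higher in gemcitabine in both, 372 higher in genistein in both and 163 opposite, and the 1197 are 29.7% of the PANC1 calls and 34.6% of the 3458 MiaPaCa2 calls among genes tested in both lines. The test of the difference between the lines passed at an adjusted p of at most 0.05 for 3428 genes (19.9%), of which 1627 (9.47%) lay higher toward gemcitabine in PANC1, and 1450 of the 3428 were called in PANC1.

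SCD (log2 -1.18, adjusted p = 1.4e-07), TXNRD1 (-1.04, adjusted p = 1.4e-07) and CDC20 (-1.34, adjusted p = 1.4e-07) were also higher in genistein in MiaPaCa2, and their differences between the lines did not pass (adjusted p = 0.0881, 0.268 and 0.131). FOSB (2.35, adjusted p = 1.9e-05) and CCNE2 (1.95, adjusted p = 1.9e-05) were likewise higher in gemcitabine in MiaPaCa2 (adjusted p of the line difference 0.941 and 0.265). The lists that hold these genes differed in part. Of 28 NRF2 genes, 8 were higher in genistein in MiaPaCa2 and 2 in gemcitabine, and the line difference passed for 14. For 37 lipid genes these counts were 7, 1 and 10, and for 56 mitotic genes 12, 2 and 21. Of 11 AP-1 factors, 5 were higher in gemcitabine and 1 in genistein, and the line difference passed for 7. For 23 cyclin and inhibitor genes these counts were 10, 3 and 7. The replication genes differed: 9 of 58 were higher in gemcitabine in MiaPaCa2 and 2 in genistein, and the line difference passed for 29 of 58. For RRM2 the log2 difference was 0.16 in MiaPaCa2 (adjusted p = 0.0833) and lay 0.83 above that in PANC1 (adjusted p = 9.7e-05). In the histone list the line difference passed for 11 of 22, with HIST1H2BD at -0.21 in MiaPaCa2 (adjusted p = 0.261) and a line difference of -1.88 (adjusted p = 8.4e-05).

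Other genes differed more, and some turned direction. KLF6 was higher in genistein in MiaPaCa2 (log2 -1.23, adjusted p = 3.4e-07), 2.75 below its value in PANC1 (adjusted p = 5.1e-09). SNHG15 (-0.88 in MiaPaCa2, line difference 2.38, adjusted p = 7.6e-07), SNHG1 (-0.86, line difference 2.11, adjusted p = 7.6e-07) and DDIT3 (-0.74, line difference 1.93, adjusted p = 6.5e-06) did the same. EGR1 had 1417 and 1240 reads with gemcitabine and 1033 and 1703 with genistein in MiaPaCa2 (log2 -0.04), and its line difference was 3.51 ± 0.30 (adjusted p = 8.9e-06). JUN stood at 0.15 in MiaPaCa2 (adjusted p = 0.363) with a line difference of 2.49 (adjusted p = 1.4e-06), and GADD45A had a line difference of 2.28 (adjusted p = 6.6e-06). FADS2 stood at 0.36 in MiaPaCa2 (adjusted p = 0.0304, short of the fold criterion), against a log2 of -1.25 in PANC1 (line difference -1.62, adjusted p = 8.9e-06).

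**Figure D5:**
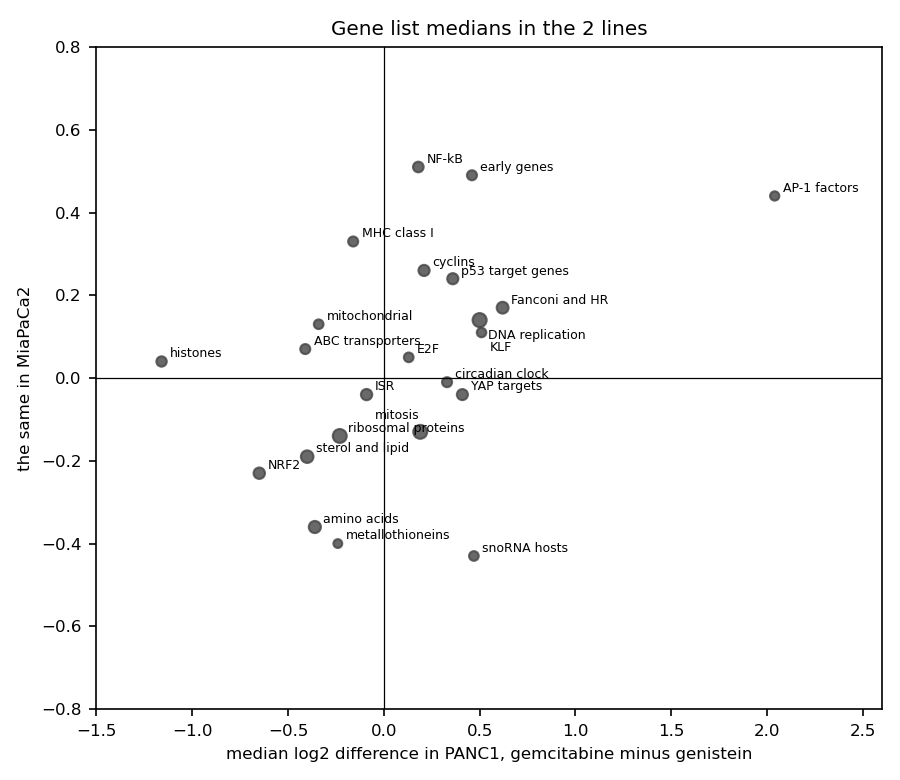
Each point is a gene list, with the median log2 difference, gemcitabine minus genistein, of its members in PANC1 on the x axis and in MiaPaCa2 on the y axis; larger points hold more genes. AP-1 factors lie at 2.04 and 0.44, histones at -1.16 and 0.04, NRF2 genes at -0.65 and -0.23, and snoRNA host genes at 0.47 and -0.43.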

How the data were processed

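RNA-seq libraries were prepared from poly(A) RNA of cell line cultures and read as single 50-base reads. Per the study's methods, reads were aligned to GRCh37 with TopHat2 2.0.4, reads with several alignments were removed with Picard 1.29, and the authors deposited raw counts per gene from HTSeq 0.6.1 and FPKM values from Cufflinks 2.1.1. Which annotation release served, and whether counting used strand, is not given in the sources used here. Removal of multiply aligned reads lowers the counts of genes with near-identical copies, and 63 genes tested had no usable FPKM.

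Samples were grouped by their labels. Of 63677 genes, the 16022 that passed filterByExpr in the 4 libraries were tested with limma-voom (limma 3.58.1, edgeR 4.0.16, R 4.3.3; 2 residual degrees of freedom, moderated across genes) after TMM scaling, with Benjamini-Hochberg adjustment, and called as stated in the report. The contrast between the lines was an interaction term over 8 libraries and 17186 genes, with no fold criterion. CPM values are TMM-scaled, and SE is that of the log2 difference. With 2 biological replicates a group, p-values rest on no spread other than that between such replicates. The spread of each gene was drawn toward that of all genes, with 21.4 prior against 2 residual degrees of freedom. Depths of 12943482 to 19687684 counts limit genes of few reads. In bulk RNA, fewer cells of a kind and less RNA per cell cannot be told apart.

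Genes named were the 15 largest differences each way among called genes, protein coding where known and without clone-type names, members of each list with the largest differences or a defining role, genes of the study's model, and the 5 largest line differences each way. CYP1A1, CDH1, ZEB2, the genes of the line comparison and other list members outside that rule were chosen after their values were seen. The gene lists and this comparison were chosen with earlier results of these data known. Promoter sequences came from RefSeq (GRCh38.p14), outside chromosome 8. The fits were tested on simulated counts. Alternatives were edgeR's quasi-likelihood test, DESeq2 1.42.0, other scalings, filters, thresholds, libraries in the model, a replicate block, a GC correction, thinned counts, FPKM on a log2 scale with a pseudocount of 1 or 0.1, and leaving out each library. The authors' combination libraries were used only in alternatives. A few genes of the lists are counted but not reported here by name.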

Additional observations from a re-analysis of the deposited data

Results flagged for a closer look

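The drug contrast differed between PANC1 and MiaPaCa2 by an interaction test (limma-voom over 8 libraries) for the 10 genes given here, those with the largest line differences each way among genes called in PANC1. Values are the PANC1 log2 difference between the drugs minus that of MiaPaCa2.

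The 5 negative line differences rest on few MiaPaCa2 reads. RAB37 had a line difference of -4.92 ± 0.68 (SE, adjusted p = 0.00028), with 3 and 3 reads in the MiaPaCa2 gemcitabine libraries and 0 and 0 in the genistein libraries. For ZG16B, a secreted lectin, it was -3.79 ± 0.76 (adjusted p = 0.00338), with 12 and 8 reads against 2 and 0. RINL had -3.57 ± 0.94 (adjusted p = 0.0159) on 12 and 4 against 3 and 0 reads. PIPOX had -3.38 ± 0.88 (adjusted p = 0.0145) on 4 and 6 against 0 and 6 reads. These 4 genes were higher in genistein in PANC1. EBI3, a cytokine subunit, was higher in gemcitabine in PANC1 (log2 1.02 in this model), and its line difference of -3.55 ± 0.62 (adjusted p = 0.00134) came with a larger value in MiaPaCa2 (4.56), on 15 and 9 against 0 and 0 reads. Where a group is at 0 reads the fitted value depends on the small count that voom adds, so its size is no bound.

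Of the 5 positive line differences, all of genes higher in gemcitabine in PANC1, ANKRD1 had a line difference of 4.07 ± 0.90 (adjusted p = 0.00588) and no read in any of the 4 MiaPaCa2 libraries. DUSP8 had 3.77 ± 0.56 (adjusted p = 0.00044), and in MiaPaCa2 79 and 47 reads with gemcitabine and 32 and 28 with genistein. EGR1 had 3.51 ± 0.30 (adjusted p = 8.9e-06), and its MiaPaCa2 counts overlapped between the drugs. CREB5 had 3.24 ± 0.29 (adjusted p = 8.9e-06), with 83 and 80 reads against 85 and 157 in MiaPaCa2. ZNF165 had 3.16 ± 0.46 (adjusted p = 0.00041), with 14 and 15 reads against 9 and 29.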

How the results depend on the processing

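The number of genes called in PANC1 (4026, of them 2378 higher in gemcitabine and 1648 in genistein) changed with the libraries in the model, the fold criterion and the scale. It was 1238 (521 and 717) with all 8 PANC1 libraries in the model, 1874 (999 and 875) with the 6 drug-treated libraries, and 397 (170 and 227) with 8 libraries and a replicate block. With 8 libraries and a GC correction it was 3430 (2088 and 1342). The last 2 alternatives, which each change 2 choices, were chosen after seeing the data. On the log2(FPKM + 1) scale it was 2632 with 632 higher in genistein, and on the log2(FPKM + 0.1) scale 2598 with 634. These scales repeated 50.8% and 49.9% of the 4026 calls in the same direction, and on each 2 calls were opposite. With a GC correction of the 4 libraries the number was 3944 (2380 and 1564). That fit repeated 72.8% of the 4026 calls in the same direction, and 2 were opposite. At a log2 difference of at least 1 it was 752 (606 and 146), with no fold criterion 2846 genes were higher in genistein, and scaling by library size alone gave 968. Without any one library it ranged from 2871 to 4333 (1604 to 2625 and 1267 to 1708). DESeq2 called 3229 and edgeR's quasi-likelihood test 4145.

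Of 44 gene lists, 27 had more members higher in gemcitabine (17 with 8 libraries and the replicate block, and 25 to 28 without a library) and 16 more in genistein (10 when scaled by library size alone, 9 at a log2 of at least 1, and 13 to 16 without a library). The line difference passed for 3428 genes, for 1484 with 16 libraries in the model, and for 1896 to 3368 without a library, with 1896 and 1938 without PANC1 genistein replicate 1 and 2, and 2056 and 2188 without MiaPaCa2 genistein and gemcitabine replicate 2.

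Of 154 named genes called, 153 were called by edgeR, 149 by DESeq2, 127 on the log2(FPKM + 1) scale and 137 in all 4 fits without a library; HIST1H3H, IER2, BBC3, DCK, NPAT and SERF1B each lost the call in at least 2 of those. SERF1B reversed to 0.52 and 0.53 on the log2(FPKM + 1) and log2(FPKM + 0.1) scales, and FASN to -0.42 with a GC correction, alone, with the replicate block or with 8 libraries. The cause of these changes was not tested. Same-numbered libraries of the drugs deviated together only weakly (correlation 0.146 over 16022 genes, 2 pairs) and nothing says that they share a culture or day. With the replicate block, 4293 genes and all 154 named genes were called, and 4724 passed the line difference. With 8 PANC1 libraries in the model, fewer of the 154 kept the call than the 127 on the log2(FPKM + 1) scale. Only 47 of the 154 were called in every setting.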
